A study of Homo sapiens with 6 samples.

Results

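The genes described here encode enzymes that oxidise or reduce aldehydes, alcohols and ketones: the aldehyde dehydrogenases (ALDH), the alcohol dehydrogenases (ADH), the aldo-keto reductases (AKR), the carbonyl reductases (CBR) and members of the short-chain dehydrogenase/reductase family named DHRS. They were picked by a rule on their symbols, as names of 1 of these families followed by a number in the usual pattern. Only probe sets that carry a single gene symbol were used. Earlier results of these data were known when the rule was chosen. The rule gave 45 genes, read by 92 probe sets, of 19775 genes in all. They comprise 18 ALDH, 7 ADH, 9 AKR, 3 CBR and 8 DHRS genes, and ALDH2, whose symbol lacks the pattern, is treated below as a relative. Genes without a probe set of a single symbol, such as AKR1A1, AKR1B1 and DHRS4, are not among the 45.

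Alcohol dehydrogenases and many DHRS enzymes convert alcohols to aldehydes or ketones and back with nicotinamide cofactors, aldo-keto and carbonyl reductases mostly reduce carbonyl groups, and aldehyde dehydrogenases oxidise aldehydes irreversibly to acids. Together they handle ethanol and its product acetaldehyde, retinol and its oxidation to retinoic acid, steroids and prostaglandins, aldehydes from lipid peroxidation, and semialdehydes from the breakdown of amino acids. In the gut epithelium they meet dietary alcohols, carbonyl compounds and vitamin A, and AKR1B10 in particular is known as an intestinal enzyme.

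HT29, an established human line from a colorectal adenocarcinoma, was exposed to a polyphenolic cocoa extract (500 µg, volume not given) for 24 h in 3 cultures, and 3 further cultures served as controls. The controls are titled untreated, whereas the protocol names saline. All cultures were started from 300000 cells in F12 medium with 7% serum, and each was read on 1 oligonucleotide array, so that precision is limited by 6 arrays. No label says whether the cultures of a group were independent experiments, so p-values measure the spread between these cultures. The deposited values are log2 expression centred on the median of the 6 arrays for each probe set. They give differences between arrays but no levels, so that neither the abundance of an enzyme nor the presence of a cell type's markers can be read. In these bulk samples fewer cells of a type and less RNA per cell cannot be told apart.

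Of 45 genes 14 changed with the extract, 10 of them higher and 4 lower, when the limma fit was held to an adjusted p below 0.05 (Benjamini-Hochberg, over all 19775 genes). The increases were DHRS2, ALDH5A1, ADH6, ALDH6A1, ADH1C, AKR1C4, AKR1C3, DHRS1, ALDH1A3 and DHRS12, and the decreases were AKR1B10, DHRS9, ALDH1B1 and ALDH16A1. Over all genes 13.5% passed the same test, 7.36% higher and 6.12% lower, against 31.1% of these 45. These shares were not tested against each other, since the genes were chosen with earlier results of these data known. The median difference, cocoa minus control, was 0.057 on the log2 scale for the 45 genes and −0.012 over all genes, and the median absolute difference was 0.161 against 0.099. A change of at least 1.5-fold was seen in 5 of the 45, DHRS2, ALDH5A1, ADH6, ALDH6A1 and AKR1B10, and in 2.26% of all genes. Groups without overlap, with every cocoa array on 1 side of every control, were found in 24 of the 45 genes, 11 higher and 13 lower with cocoa, which compares with 32.5% of all genes. Of the 31 genes that did not pass, 10 had groups without overlap. The matching share among all genes that did not pass was not computed.

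**Figure D1:**
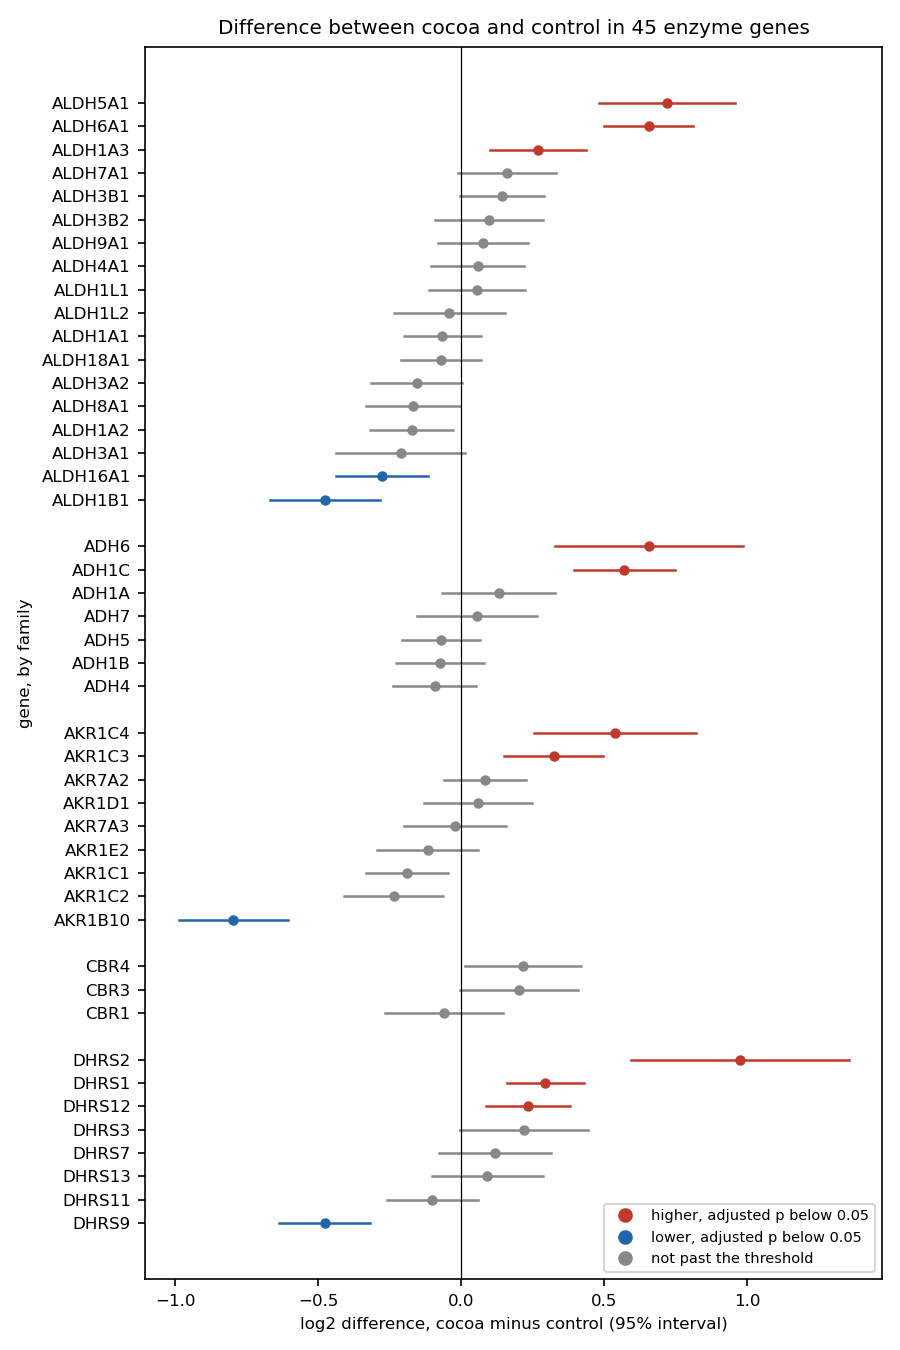
Log2 difference (cocoa minus control, horizontal axis) of each of the 45 genes, grouped by family on the vertical axis, with the moderated 95% interval as a line; red and blue mark genes past the threshold and grey the others. DHRS2 lies farthest to the right (0.97) and AKR1B10 farthest to the left (−0.80), and every family except the carbonyl reductases holds genes past the threshold.

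The 14 genes differed in how far they rested on single arrays. AKR1B10, DHRS9, ALDH1B1, ADH1C, ALDH6A1, ALDH5A1 and DHRS2 stayed past the threshold in each of the 6 fits without 1 array, and the other 7 lost the call in at least 1 of these fits, as given with each gene. The count fell from 14 to 9 without any one of control arrays 1, 2 and 3 and of cocoa array 2. In these fits the count over all genes fell from 2666 to 1623, 1315, 1826 and 1788. The signal of the 18S ribosomal RNA control probe sets lay between −1.12 and 0.51 in the controls and at −0.51, 3.31 and 1.40 in cocoa arrays 1, 2 and 3. With that signal as a covariate 7 of the 45 genes passed, while 5.58% of all genes did. All 7 were among the 14 (AKR1B10, DHRS9, ADH1C, ALDH6A1, ADH6, ALDH5A1 and DHRS2). The 5′ minus 3′ signal of the actin and GAPDH control probe sets was 0.0090 to 0.033 in the controls and 0.032, −0.26 and −0.052 in cocoa arrays 1, 2 and 3. With it as a covariate 9 of the 45 passed, all among the 14 (the same 7, ALDH1B1 and DHRS1), and 7.14% of all genes. All 14 kept their sign in both fits. Both signals were most extreme in cocoa arrays 2 and 3, so each covariate partly follows the group. A call can thus be lost without a smaller difference, and the reason for the lost calls was not tested.

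**Figure D2:**
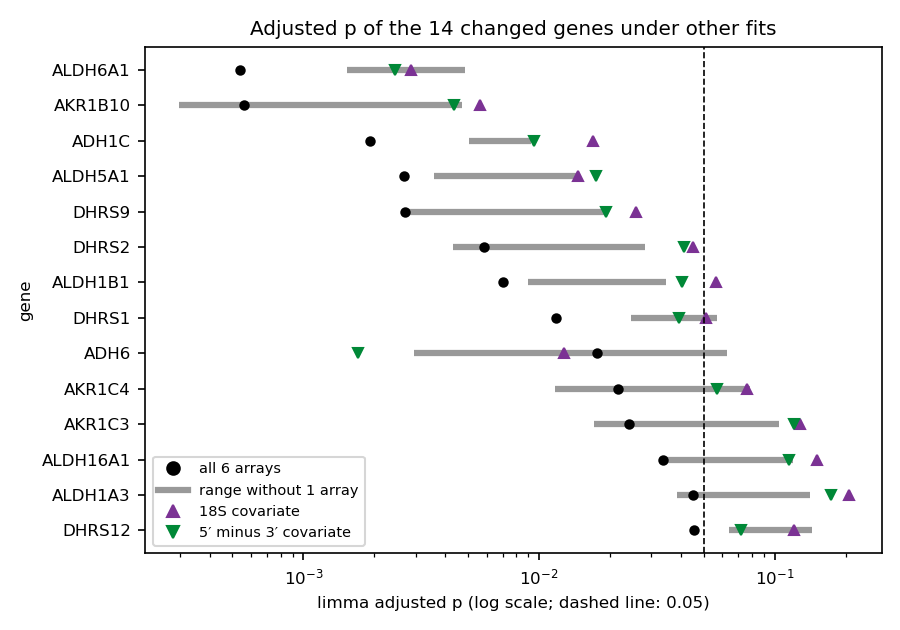
Limma adjusted p (log axis) of the 14 changed genes, for all 6 arrays (black), over the 6 fits without 1 array (grey bar) and with the 18S or the 5′ minus 3′ signal as covariate (triangles); the dashed line is 0.05. The bars of 7 genes, from ALDH6A1 to ALDH1B1 on the vertical axis, lie wholly to the left of the line, and those of DHRS1, ADH6, AKR1C4, AKR1C3, ALDH16A1, ALDH1A3 and DHRS12 cross it or lie beyond it.

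The ALDH genes are taken here by role, in groups formed after the values were seen. Among the enzymes of amino acid metabolism 2 of 7 genes rose, none fell and 5 did not pass (28.6% past the threshold, against 13.5% of all genes, median 0.076). ALDH5A1 is succinic semialdehyde dehydrogenase, the mitochondrial enzyme that ends the breakdown of the transmitter GABA. Its centred log2 values were −0.18, −0.35 and −0.55 in the controls and 0.48, 0.39 and 0.21 in the cocoa arrays. All 3 cocoa arrays lay above all controls, and ALDH5A1 rose 1.65-fold (difference 0.72 in log2, SE 0.11, 3 arrays in each group, limma adjusted p = 0.00266). Its probe sets differed in size: the one with the plain suffix read 0.95 (SE 0.12, limma adjusted p over probe sets 0.00316) and the other 0.49 (SE 0.19, adjusted p = 0.177).

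ALDH6A1 is methylmalonate semialdehyde dehydrogenase, which acts in the mitochondrial breakdown of valine and thymine. It was at −0.25, −0.34 and −0.38 in the controls and at 0.36, 0.26 and 0.38 in the cocoa arrays, and rose 1.58-fold (log2 difference 0.66, SE 0.069, limma adjusted p = 0.000537). The arrays of each group lay close together (SD 0.067 in both). Of its 5 probe sets 3 rose, by 0.84, 0.92 and 1.06 on the log2 scale, and a further one read 0.39 (limma adjusted p = 0.0576). The last, the sole one whose suffix marks no possible match to other transcripts, read 0.064 (SE 0.14, 95% interval −0.26 to 0.39, adjusted p = 0.859), with values of 0.20, −0.074 and −0.15 in the controls and 0.074, −0.21 and 0.30 with cocoa. The rise of ALDH6A1 therefore rested on probe sets marked _s_at or _x_at, and without these its difference was 0.064 (adjusted p = 0.847 over genes).

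The other 5 genes of this group did not pass. ALDH7A1, an enzyme of lysine breakdown, had a difference of 0.16 (95% interval −0.0099 to 0.33), ALDH9A1, which oxidises aminobutyraldehyde, 0.076, and ALDH4A1, the last enzyme of proline breakdown, 0.057. ALDH18A1, which makes the precursor of proline, had a difference of −0.072, and ALDH8A1, an enzyme of tryptophan breakdown, −0.17. Partners of these enzymes and of the folate ALDH enzymes were read from a list of 21 genes, 18 of them measured. Of these 18 genes 2 rose, 2 fell and 14 did not pass (22.2% past the threshold, against 13.5% of all genes, median −0.055). OAT, the mitochondrial ornithine aminotransferase, rose by 0.39 (SE 0.062, limma adjusted p = 0.0039) and kept its call in each fit without 1 array. ABAT, the GABA transaminase that forms the substrate of ALDH5A1, was at −0.091, −0.27 and −0.017 in the controls and at 0.12, 0.14 and 0.24 with cocoa. It rose by 0.29 (SE 0.081, limma adjusted p = 0.0445), without overlap of the groups. Leaving out 1 array at a time gave ABAT an adjusted p of 0.045 to 0.17, and the call was lost without control array 1 or 2 or any cocoa array and with the 18S covariate (0.12).

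In the folate branch, the formyltetrahydrofolate dehydrogenases ALDH1L1 (cytosolic, 0.055) and ALDH1L2 (mitochondrial, −0.042) did not pass, and neither had an unadjusted p below 0.05. Of the enzymes around them in the list, SHMT2, mitochondrial serine hydroxymethyltransferase, fell by 0.28 (SE 0.078, limma adjusted p = 0.0459), and MTHFD2L, a mitochondrial methylenetetrahydrofolate dehydrogenase, fell by 0.25 (SE 0.063, adjusted p = 0.0293). Both calls were lost without any one of the controls, cocoa array 2 or cocoa array 3 (adjusted p 0.042 to 0.149 and 0.0464 to 0.104) and with the 18S covariate (0.251 and 0.127).

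Of the ALDH enzymes that act on retinaldehyde and acetaldehyde 1 rose, 1 fell and 2 did not pass (50% past the threshold, against 13.5% of all genes). ALDH1B1, a mitochondrial enzyme that oxidises acetaldehyde, was at 0.32, 0.22 and 0.097 in the controls and at −0.17, −0.40 and −0.23 in the cocoa arrays. The groups did not overlap, and ALDH1B1 fell by 0.48 on the log2 scale (SE 0.086, limma adjusted p = 0.00702). Both of its probe sets fell, by 0.51 and 0.44 (adjusted p over probe sets 0.0364 and 0.0349). Both carry suffixes for possible matches to several transcripts, and with the 18S covariate the adjusted p of the gene was 0.0563.

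ALDH1A3, which makes retinoic acid from retinaldehyde, was at −0.079, −0.041 and −0.17 in the controls and at 0.18, 0.26 and 0.063 in the cocoa arrays, as the mean of 2 probe sets. It rose by 0.27 (SE 0.075, limma adjusted p = 0.0448), a call that was lost without any one of the controls, cocoa array 1 or cocoa array 2 (adjusted p 0.0386 to 0.141) and with the 18S covariate (0.206). Its 2 probe sets differed. One read −0.32, −0.21 and −0.28 in the controls and 0.38, 0.51 and 0.21 with cocoa, a rise of 0.64 (SE 0.094, limma adjusted p over probe sets 0.00584, 0.0092 to 0.0298 without 1 array). The other had a difference of −0.11 (SE 0.088, 95% interval −0.31 to 0.094, adjusted p = 0.559). ALDH1A1 (−0.066, 95% interval −0.20 to 0.069) and ALDH1A2 (−0.17, −0.32 to −0.027), the other retinaldehyde dehydrogenases, did not pass.

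ALDH2, the main mitochondrial acetaldehyde dehydrogenase, stands outside the symbol rule. It was at −0.14, −0.093 and −0.10 in the controls and at 0.093, 0.17 and 0.24 in the cocoa arrays, and it rose by 0.28 (SE 0.066, limma adjusted p = 0.0224). The call was kept without cocoa array 1 and lost in the other 5 fits without 1 array (adjusted p 0.019 to 0.0806) and with the 18S covariate (0.129). ALDH2 was thus higher with cocoa and ALDH1B1 lower, without overlap of the groups in either gene. ALDH2 was the 1 gene of 7 measured relatives with names outside the rule that passed (14.3%, against 13.5% of all genes). The other 6 were ADHFE1, DHRS7B, DHRS7C, DHRSX (0.27, limma adjusted p = 0.0506), BDH1 and BDH2 (median of the 7 0.128).

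None of the 4 ALDH3 genes, which act on lipid-derived and aromatic aldehydes, passed (unadjusted p below 0.05 in none of them), whereas ALDH16A1 fell. ALDH16A1 encodes a long family member with no well-known substrate. It was at 0.27, 0.18 and 0.069 in the controls and at −0.069, −0.095 and −0.14 in the cocoa arrays, and fell by 0.28 (SE 0.072, limma adjusted p = 0.0335). The gene is read by 1 probe set, which did not pass over probe sets (limma adjusted p = 0.079). The groups did not overlap, and the call was lost without control array 1 or 2 or cocoa array 2 or 3 (adjusted p 0.0337 to 0.12) and with either covariate (0.151 with the 18S signal, 0.115 with the 5′ minus 3′ signal). ALDH3A1, which oxidises aromatic aldehydes and is known as a target of the aryl hydrocarbon receptor, was at 0.0071, 0.025 and −0.0071 in the controls and at 0.018, −0.23 and −0.40 with cocoa. Cocoa array 1 lay among the controls and the other 2 cocoa arrays below them, and the difference of −0.21 did not pass (SE 0.10, limma adjusted p = 0.21). It was −0.32 without cocoa array 1 (adjusted p = 0.0271), −0.11 without cocoa array 3 (0.506) and −0.12 with the 18S covariate (0.609). ALDH3A2, the fatty aldehyde dehydrogenase, had a difference of −0.15 (95% interval −0.31 to 0.0042), ALDH3B1 0.14 (−0.0058 to 0.29) and ALDH3B2 0.097 (−0.091 to 0.28). The 3 probe sets of ALDH3B1 read 0.35, 0.24 and −0.16, none of them past the threshold.

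The ADH genes lie side by side on chromosome 4, in the order ADH5, ADH4, ADH6, ADH1A, ADH1B, ADH1C and ADH7 in the RefSeq gene table. Of the 7 genes 2 rose, none fell and 5 did not pass (28.6% past the threshold, against 13.5% of all genes, median 0.054). ADH1A, ADH1B and ADH1C are the class I enzymes that carry out most of the oxidation of ethanol in liver, and are close copies of each other. Their upstream sequences are shown because 1 of these copies rose and the other 2 did not pass. The 120 bases before each start are from RefSeq (GRCh38.p14, minus strand, chr4:99290986-99291105 for ADH1A, chr4:99321402-99321521 for ADH1B and chr4:99352747-99352866 for ADH1C), written 5′ to 3′. Capitals mark CACGTG, 1 form of the E-box, which was searched after the sequences were seen.
ADH1A: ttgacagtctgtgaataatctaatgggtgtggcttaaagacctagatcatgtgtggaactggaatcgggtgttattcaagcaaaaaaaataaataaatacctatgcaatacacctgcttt
ADH1B: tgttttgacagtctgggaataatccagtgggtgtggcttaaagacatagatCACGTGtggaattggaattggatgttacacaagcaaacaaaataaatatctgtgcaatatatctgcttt
ADH1C: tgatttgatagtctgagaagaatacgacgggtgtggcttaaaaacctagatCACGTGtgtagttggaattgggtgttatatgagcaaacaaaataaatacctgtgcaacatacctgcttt

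Over the 250 bases before the start ADH1C was 80.7% identical to ADH1A and 80.3% to ADH1B, and ADH1A was 81.4% identical to ADH1B. CACGTG stood 69 bases before the start in ADH1B and ADH1C and was not found in the 120 bases of ADH1A. At the matching place ADH1A reads catgtg, and other forms of the E-box were not searched. CACGTG, which reads the same on both strands, was found in 7.26% of all 35116 promoters of the table (250 bases before to 50 after a start). It was found in 6 of the 55 promoters of the enzyme genes (10.9%). The genes were ADH1B, ADH1C, ALDH18A1, ALDH3A2, ALDH3B1 and CBR1, and 1 of them, ADH1C, changed.

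ADH1C was at −0.39, −0.22 and −0.21 in the controls and at 0.29, 0.21 and 0.39 in the cocoa arrays. All cocoa arrays lay above all controls, and ADH1C rose 1.48-fold (log2 difference 0.57, SE 0.078, limma adjusted p = 0.00191) on 1 probe set. ADH1A was at 0.048, −0.048 and −0.17 in the controls and at −0.012, 0.012 and 0.23 with cocoa, with overlapping groups and a difference of 0.13 (95% interval −0.066 to 0.33, adjusted p = 0.395). ADH1B, read by 4 probe sets, had a difference of −0.075 (−0.23 to 0.079, adjusted p = 0.552). Its probe sets read 0.062, −0.014, −0.25 and −0.096, none of them past the threshold. The value of ADH1C minus the mean of ADH1A and ADH1B was −0.44, −0.22 and −0.14 in the controls and 0.28, 0.20 and 0.34 with cocoa, a shift of 0.54. This is a description with no test, since the genes were set against each other after their values were seen. Probes for such close copies can bind each other's transcripts, so their values are uncertain as separate measurements. This was not tested.

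ADH6, a less studied alcohol dehydrogenase of liver and gut, was at −0.18, −0.086 and −0.38 in the controls and at 0.69, 0.086 and 0.54 in the cocoa arrays. It rose 1.58-fold (log2 difference 0.66, SE 0.15, limma adjusted p = 0.0175), with a wide spread among the cocoa arrays (SD 0.317). The call was lost without control array 1, control array 3 or cocoa array 3 (leaving out 1 array gave 0.00295 to 0.0628) and kept with the 18S covariate (0.0128). Both probe sets rose, by 0.86 and 0.46, and both can match several transcripts. ADH5, which oxidises formaldehyde bound to glutathione (−0.070, 95% interval −0.21 to 0.065), ADH4, a liver form (−0.092, −0.24 to 0.053), and ADH7, a stomach form active on retinol (0.054, −0.16 to 0.26), did not pass.

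Of the 9 AKR genes 2 rose, 1 fell and 6 did not pass (33.3% past the threshold, against 13.5% of all genes). AKR1B10 reduces retinaldehyde and lipid-derived carbonyls and is a known target of the stress factor NRF2. It was at 0.30, 0.36 and 0.30 in the controls and at −0.30, −0.57 and −0.56 in the cocoa arrays. The controls lay close together (SD 0.034) and all cocoa arrays lay below them. With cocoa AKR1B10 was lower by 1.74-fold (difference −0.80 in log2, SE 0.084, limma adjusted p = 0.000561, at most 0.00472 in the fits without 1 array), as read by 1 probe set with the suffix _s_at.

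The AKR1C genes, which encode hydroxysteroid dehydrogenases, lie beside AKR1E2 on chromosome 10 in the order AKR1C1, AKR1C2, AKR1C3 and AKR1C4. Of these 4 genes AKR1C3 and AKR1C4 rose (50%, against 13.5% of all genes past the threshold), and AKR1C1 and AKR1C2 did not pass, with negative differences. The 120 bases before their starts are shown because these copies differed in sign; they are from RefSeq (GRCh38.p14), 5′ to 3′, at chr10:4963295-4963414 (plus strand) for AKR1C1, chr10:5003858-5003977 (minus strand) for AKR1C2, chr10:5094294-5094413 (plus strand, the second of 2 listed starts) for AKR1C3 and chr10:5196717-5196836 (plus strand) for AKR1C4. No part is marked by capitals.
AKR1C1: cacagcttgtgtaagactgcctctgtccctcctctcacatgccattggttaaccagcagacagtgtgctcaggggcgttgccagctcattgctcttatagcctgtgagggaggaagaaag
AKR1C2: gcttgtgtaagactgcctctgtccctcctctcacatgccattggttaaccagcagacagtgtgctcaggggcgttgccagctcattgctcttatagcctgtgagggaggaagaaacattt
AKR1C3: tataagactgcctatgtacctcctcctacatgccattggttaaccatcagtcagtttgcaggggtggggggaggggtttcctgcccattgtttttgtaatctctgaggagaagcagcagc
AKR1C4: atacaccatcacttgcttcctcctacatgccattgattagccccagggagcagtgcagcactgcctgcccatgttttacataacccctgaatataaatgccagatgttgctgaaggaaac

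Over 250 bases AKR1C1 and AKR1C2 were 96.5% identical to each other. AKR1C3 was 69.2% identical to AKR1C1 from this start and 71.4% from its other start, and AKR1C4 was 59.9% identical to AKR1C1.

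AKR1C3, which reduces steroid ketones and prostaglandin D, was at −0.12, −0.17 and −0.073 in the controls and at 0.22, 0.32 and 0.073 in the cocoa arrays. It rose by 0.32 (SE 0.077, limma adjusted p = 0.0242), as read by 1 probe set that did not pass over probe sets (adjusted p = 0.0594). AKR1C4, an enzyme of bile acid and steroid metabolism, was at −0.32, −0.057 and −0.35 in the controls and at 0.54, 0.29 and 0.057 with cocoa, and rose 1.45-fold (log2 difference 0.54, SE 0.13, limma adjusted p = 0.0216). In both genes the groups did not overlap, and cocoa array 3 was the lowest of the cocoa arrays. The call of AKR1C3 was lost without any one of the controls or cocoa array 2 (adjusted p 0.0171 to 0.104) and that of AKR1C4 without control array 1, control array 3 or cocoa array 2 (0.0117 to 0.0785). With the 18S covariate the adjusted p was 0.128 and 0.0766, and with the 5′ minus 3′ covariate 0.12 and 0.0567. The difference with these covariates was 0.29 and 0.26 in AKR1C3, which was 0.32 without them. In AKR1C4 the difference was 0.59 and 0.60, and 0.54 without them.

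AKR1C1, which inactivates progesterone, was at 0.068, 0.10 and 0.052 in the controls and at −0.076, −0.090 and −0.18 in the cocoa arrays. AKR1C2, which inactivates dihydrotestosterone, was at 0.16, 0.074 and 0.089 in the controls and at −0.11, −0.017 and −0.26 with cocoa. In both genes all cocoa arrays lay below all controls, yet neither difference passed (−0.19, SE 0.063, limma adjusted p = 0.0826, and −0.24, SE 0.076, adjusted p = 0.0748). With array weights both passed (0.0416 and 0.043). Without _s_at and _x_at probe sets the differences shrank to −0.048 in AKR1C1 (adjusted p = 0.776) and −0.11 in AKR1C2 (0.448), and 1 of the 5 probe sets of AKR1C1 read 0.077. A probe set annotated to both AKR1C1 and AKR1C2, and for that reason outside the gene values, read 0.21, 0.73 and 0.32 in the controls and −0.32, −0.21 and −0.49 with cocoa. It fell by 0.76 (SE 0.14, limma adjusted p over probe sets 0.0143), and leaving out 1 array gave 0.0232 to 0.0547, with the call lost without cocoa array 3. The mean of AKR1C3 and AKR1C4 minus the mean of AKR1C1 and AKR1C2 was −0.33, −0.20 and −0.28 in the controls and 0.47, 0.36 and 0.28 with cocoa, a shift of 0.64. The pairs were formed by the signs already seen, which fixes the direction of this shift, so it is a description with no test. AKR1C1 and AKR1C2 are near-identical genes whose probe sets can read each other's transcripts, so their values are uncertain as separate measurements.

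**Figure D3:**
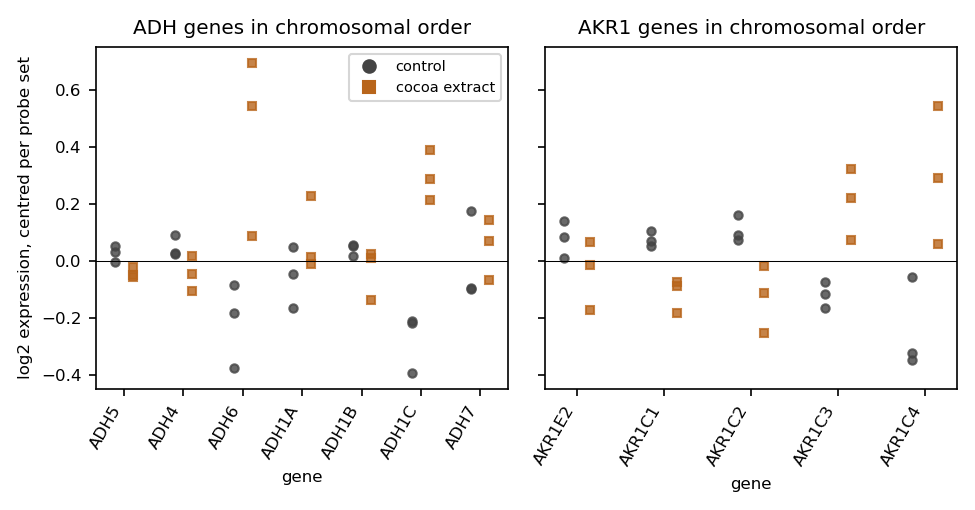
Centred log2 expression (vertical axis) of the ADH genes (left) and of the AKR1E2 and AKR1C genes (right) in the order in which they lie on their chromosome, with 1 point per array, controls in grey and cocoa in orange. Cocoa points stand above all controls in ADH6, ADH1C, AKR1C3 and AKR1C4, and below all controls in ADH5, ADH4, AKR1C1 and AKR1C2.

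The other 4 AKR genes did not pass. AKR7A2, which reduces succinic semialdehyde and aflatoxin dialdehyde, had a difference of 0.082 (95% interval −0.061 to 0.23), its relative AKR7A3 −0.021 (−0.20 to 0.16) and AKR1D1, the steroid reductase of bile acid synthesis, 0.060 (−0.13 to 0.25). AKR1E2, a reductase of anhydrofructose, had a difference of −0.12 as the mean of 3 probe sets, and its probe sets read −0.30, −0.15 and 0.094. The first was at 0.11, 0.22 and 0.21 in the controls and at −0.11, −0.12 and −0.12 with cocoa, and passed over probe sets (SE 0.074, limma adjusted p = 0.0437). That call was lost in each fit without 1 array (0.0702 to 0.172).

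None of the 3 carbonyl reductases passed in limma, against 13.5% of all genes, and 1 of them, CBR4, had an unadjusted p below 0.05. CBR4, a mitochondrial quinone reductase, was at −0.27, −0.12 and 0.011 in the controls and at 0.20, −0.023 and 0.095 with cocoa, so that the groups overlapped (difference 0.22, 95% interval 0.014 to 0.42, limma adjusted p = 0.155). CBR1, the main cytosolic carbonyl reductase, had a difference of −0.060 (−0.27 to 0.15), and CBR3, its close relative, of 0.20 (−0.0051 to 0.41).

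Among the 8 DHRS genes 3 rose, 1 fell and 4 did not pass (50% past the threshold, against 13.5% of all genes). DHRS2, a dicarbonyl reductase found in nucleus and mitochondria, had the largest difference of the 45 genes. It was at −0.22, −0.68 and −0.44 in the controls and at 0.22, 0.46 and 0.90 in the cocoa arrays. The groups did not overlap, though both spread widely (SD 0.231 and 0.346), and DHRS2 rose 1.97-fold (log2 difference 0.97, SE 0.17, limma adjusted p = 0.00584). Its adjusted p was 0.00433 to 0.0282 without 1 array and 0.0451 with the 18S covariate. Both of its probe sets rose, by 1.26 and 0.68. With the 18S covariate neither passed over probe sets (limma adjusted p = 0.062 and 0.146).

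DHRS1, a reductase of the endoplasmic reticulum, had the closest replicates of the changed genes: −0.13, −0.15 and −0.17 in the controls and 0.17, 0.13 and 0.13 with cocoa (SD 0.017 and 0.022). It rose by 0.29 (SE 0.060, limma adjusted p = 0.0118), and the call was lost without control array 2 (0.0247 to 0.057 over the fits without 1 array) and with the 18S covariate (0.0512). DHRS12, a poorly characterised member, was at −0.12, −0.054 and −0.18 in the controls and at 0.15, 0.065 and 0.12 with cocoa, and rose by 0.23 (SE 0.066, limma adjusted p = 0.0457). Its call was lost in each fit without 1 array (adjusted p 0.064 to 0.144). It rested on 1 of 3 probe sets, which was at −0.34, −0.21 and −0.46 in the controls and at 0.60, 0.54 and 0.21 with cocoa (difference 0.79, SE 0.12, adjusted p over probe sets 0.00687, at most 0.0321 without 1 array). The others read −0.12 and 0.036, and with the median of the 3 the adjusted p of the gene was 0.444.

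DHRS9, an epithelial dehydrogenase of retinol and hydroxysteroids, was at 0.21, 0.29 and 0.25 in the controls and at −0.12, −0.28 and −0.28 in the cocoa arrays. All cocoa arrays lay below all controls, and DHRS9 fell by 0.48 (SE 0.070, limma adjusted p = 0.0027, at most 0.0192 without 1 array and 0.0258 with the 18S covariate). Of its 3 probe sets 2 fell, by 0.53 and 0.61, and the third read −0.29 (adjusted p = 0.141). With the 18S covariate none of the 3 passed over probe sets (limma adjusted p = 0.0765, 0.0538 and 0.53). DHRS3, which reduces retinaldehyde back to retinol and is known to be induced by retinoic acid, was at 0.033, −0.25 and −0.37 in the controls and at 0.012, −0.012 and 0.076 with cocoa. Control array 1 lay among the cocoa arrays, and the difference of 0.22 did not pass (95% interval −0.0041 to 0.44, limma adjusted p = 0.193). It was 0.33 without control array 1 (adjusted p = 0.0393) and 0.13 without control array 3 (0.472). DHRS7 (0.12), DHRS11 (−0.10) and DHRS13 (0.091) did not pass. A probe set annotated to both DHRS4L2 and DHRS4, outside the gene values, read −0.044 (SE 0.091, limma adjusted p over probe sets 0.847).

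**Figure D4:**
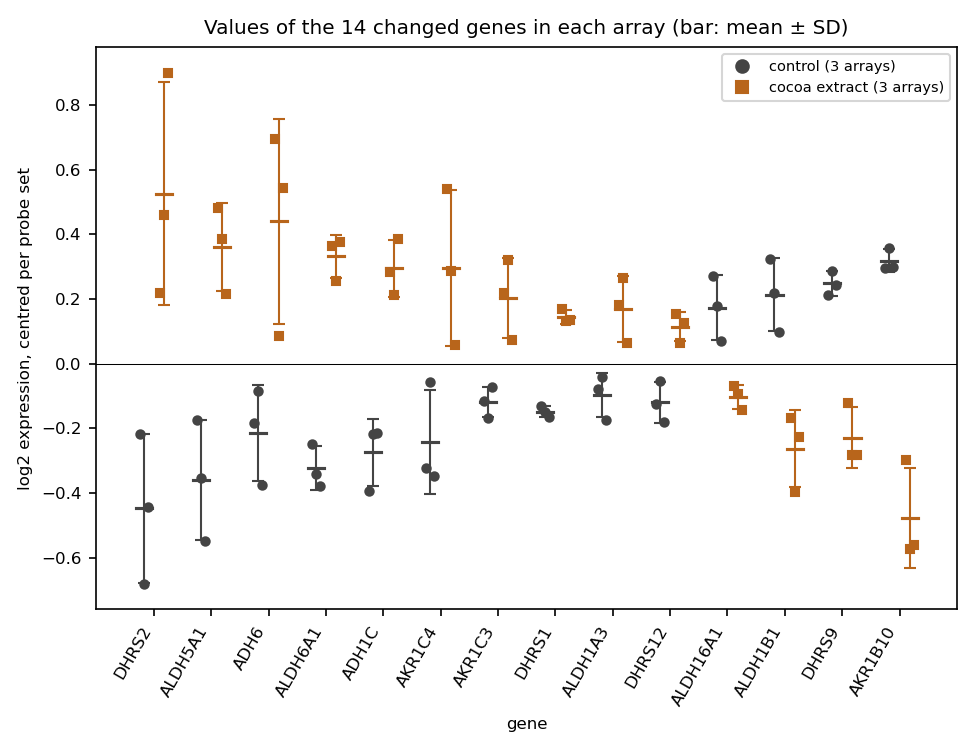
Centred log2 expression (vertical axis) of the 14 changed genes in each array, controls as grey circles and cocoa as orange squares, with the mean and SD of 3 arrays as bars. The groups are apart in all 14 genes, widest in DHRS2, and the replicates lie closest together in DHRS1.

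At the level of probe sets 19 of the 92 passed, 13 higher and 6 lower, while 7.98% of all 54613 probe sets did, and 10 of the 19 stayed past the threshold in each fit without 1 array. The other 9 were both of ADH6, both of ALDH1B1, 1 each of DHRS2 and DHRS9, and those of AKR1C4, AKR1E2 and DHRS1. Of the 45 genes 27 have several probe sets, and in 17 of these all probe sets had the same sign. No gene had probe sets called in opposite directions. Of the 14 changed genes 8 have several probe sets, 6 of them with a single sign, the exceptions being ALDH1A3 and DHRS12. AKR1B10, DHRS9, ALDH1B1, ADH6 and DHRS12 are read by _s_at or _x_at probe sets alone.

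**Figure D5:**
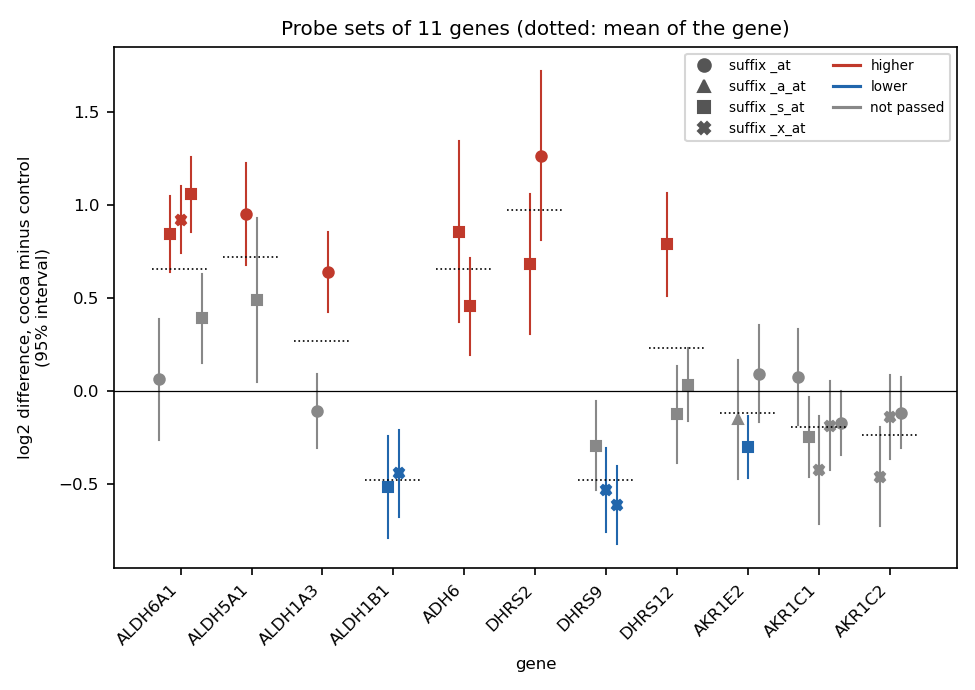
Log2 difference (cocoa minus control, vertical axis) of each probe set of 11 genes with its 95% interval; the marker gives the suffix, red and blue mark probe sets past the threshold, and a dotted line the mean of the gene. Probe sets of ADH6, DHRS2 and ALDH1B1 moved together, whereas in ALDH1A3 and DHRS12 1 probe set read 0.64 and 0.79 and the others lay between −0.12 and 0.036.

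The genes around these enzymes were read from lists. Of 24 measured genes of retinoid handling 2 rose, none fell and 22 did not pass (median 0.018). The share past the threshold was 8.33%, below the 13.5% of all genes. BCO1, which cleaves beta-carotene to retinaldehyde, was at −0.47, −0.21 and −0.48 in the controls and at 0.25, 0.31 and 0.21 in the cocoa arrays, and rose by 0.64 (SE 0.085, limma adjusted p = 0.00161). RETSAT, the retinol saturase, rose by 0.45 (SE 0.064, adjusted p = 0.00217). Both kept their call in each fit without 1 array and with the 18S covariate. CYP26A1, which degrades retinoic acid and is a classic retinoic acid target, had a difference of 0.019 (adjusted p = 0.908), and the receptor genes RARB and RARA of 0.029 and −0.21 (adjusted p = 0.883 and 0.0658).

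Of 22 measured genes of steroid, prostaglandin and sugar metabolism 3 rose, none fell and 19 did not pass (median 0.015). The list holds dehydrogenases and reductases and also the sugar kinase KHK. The share past the threshold was 13.6%, near the 13.5% of all genes. PTGR2, which reduces oxidised prostaglandins, was at −0.50, −0.40 and −0.16 in the controls and at 0.40, 0.39 and 0.16 with cocoa, and rose by 0.67 (SE 0.10, limma adjusted p = 0.00306). HSD17B11, an enzyme of lipid droplets that acts on steroids, rose by 0.49 (SE 0.081, adjusted p = 0.00451). HSD17B1, which makes oestradiol, rose by 0.27 (SE 0.075, adjusted p = 0.045), a call lost in each fit without 1 array (0.0683 to 0.14) and with the 18S covariate (0.204). HPGD, which inactivates prostaglandins, had a difference of −0.18 (adjusted p = 0.142).

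Of 15 genes of aldehyde sources and other aldehyde removal 3 rose, none fell and 12 did not pass (median 0.012). The share past the threshold was 20%, against 13.5% of all genes. AOC1, the diamine oxidase that degrades histamine and releases an aldehyde, was at −0.40, −0.37 and −0.71 in the controls and at 0.50, 0.49 and 0.37 in the cocoa arrays. It rose 1.93-fold (log2 difference 0.95, SE 0.095, limma adjusted p = 0.000431). ACSS2, which activates acetate, the product of acetaldehyde oxidation, rose by 0.79 (SE 0.11, adjusted p = 0.00209). HAGH, the second enzyme of the glyoxalase pathway, rose by 0.39 (SE 0.087, adjusted p = 0.0181), a call lost without control array 2, control array 3 or cocoa array 2 (0.0169 to 0.0778) and with the 18S covariate (0.0623). AOC1, ACSS2 and HAGH are each read by _s_at probe sets alone. GLO1, the first enzyme of that pathway, had a difference of −0.049 (adjusted p = 0.694), and the ethanol oxidisers CYP2E1 and CAT of 0.052 and 0.12 (adjusted p = 0.71 and 0.274).

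AKR1B10, AKR1C1, AKR1C2 and AKR1C3 are known targets of NRF2, and ALDH3A1 of the aryl hydrocarbon receptor. In the NRF2 list 2 of 22 measured genes rose, 3 fell and 17 did not pass (22.7% past the threshold, against 13.5% of all genes, median −0.061). PIR rose by 0.66 and EPHX1 by 0.41, HMOX1 fell by 0.34 and UGDH, which makes glucuronic acid, by 0.30 (limma adjusted p 0.00065 to 0.0212). The remaining decrease, named after its value was seen, was OSGIN1 (−0.28, SE 0.072, adjusted p = 0.0309), whose call was kept without cocoa array 1 and lost in the other 5 fits without 1 array (0.0311 to 0.111). With the 18S covariate EPHX1, UGDH and OSGIN1 did not pass (0.0867, 0.127 and 0.184). PIR is read by an _s_at probe set alone. The call of HMOX1 was lost without control array 2 (0.0645), and that of UGDH without any one of the controls or cocoa array 2 (0.0259 to 0.099). In the aryl hydrocarbon receptor list 4 of 8 rose, none fell and 4 did not pass (50% past the threshold, against 13.5% of all genes, median 0.21). CYP1A1 was 1.14, CYP1B1 0.46, AHRR 0.41 and the receptor gene AHR itself 0.35 higher on the log2 scale. CYP1B1 is read by _s_at probe sets alone. The call of AHR was lost in 5 of the fits without 1 array, all but that without cocoa array 1 (0.00504 to 0.0777), and that of AHRR in all but that without cocoa array 3 (0.0212 to 0.141). With the 18S covariate neither passed (0.154 and 0.242). These genes and the 45 enzymes were compared on the same 6 arrays.

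Promoter sequences were found for 38 of the 45 genes, 55 promoters in all, and searched on both strands over 250 bases before to 50 after the start. The core of the antioxidant response element (TGACNNNGC) was found in 5 of the 55 (9.09%) and in 13.3% of all promoters, the genes being AKR7A2, CBR1, DHRS1 and DHRS9. The core of the aryl hydrocarbon receptor's site (GCGTG) was found in 19 of the 55 (34.5%) and in 36.5% of all. The nuclear receptor element AGGTCA was found in 4 (7.27%) and in 13.8% of all, and the interferon-stimulated response element in 1, of DHRS9 (1.82%), and in 3.57% of all. No motif contains another, but AGGTCA read on the other strand can overlap TGACNNNGC in its first letters.

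Markers of other cell types were read as differences. Of 10 markers of colon epithelium 1 passed (10%, against 13.5% of all genes). It was CDH17, an intestinal cadherin (0.56, SE 0.12, limma adjusted p = 0.0126, 0.0555 without control array 2 and 0.0997 with the 18S covariate). None of 5 fibroblast, 3 leukocyte and 3 endothelial markers passed in limma or had an unadjusted p below 0.05. Whether those genes are expressed at all cannot be read from centred values.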

How the data were processed

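RNA of 6 HT29 cultures was labelled with biotin and hybridised to Affymetrix U133 Plus 2.0 arrays, per the labels' protocols and the series' design text. Per the submitters' processing notes, the authors used RMA for the deposited log2 values, and the series text names GeneSpring GX. For software versions and filters, nothing is given in the sources used here. Row medians are 0 (at most 5e-07 in size), so levels, detection and signal over background are unknown, and the log base follows from RMA rather than from the table.

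Of 54613 probe sets without controls 41091 carry 1 gene symbol in the platform annotation, 1801 several and 11721 none. A gene's value is the mean of its probe sets. All 92 probe sets of the 45 genes matched RefSeq by gene identifier. Differences, cocoa minus control, were fitted on 19775 genes (and on all probe sets) with limma 3.58.1 in R 4.3.3 (lmFit, eBayes) and adjusted by Benjamini-Hochberg with a threshold of 0.05. SE and 95% intervals are moderated, and folds are 2 to the power of the difference. Promoter identities were computed with biopython 1.88.

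In simulated data with the spread of these genes, 66% of 50 genes changed by 0.5 (log2) were called, 92% at 1 and 100% at 2, but 4% at 0.25. That simulation gave 134 calls against 2666 in the real fit, whose limit on the unadjusted p is therefore looser, so these shares do not carry over to the real data. No 2 arrays were copies of each other (SD of the difference 0.175 to 0.333). The members, the lists of genes and the naming rule (all members past the threshold or with probe sets called in part, and up to 4 changed genes of each related list) were chosen with earlier results of these data known; other genes were named after their values were seen, as was the E-box. The fits were repeated with a replicate block, a robust prior, array weights, quantile normalisation, median centring, removal of the _s_at and _x_at types of probe set, the median of probe sets, both covariates, a 1.5-fold limit and leaving out each array.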

Additional observations from a re-analysis of the deposited data

How the results depend on the processing

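The count of 14 changed genes among the 45 was 7 with the 18S covariate, 9 with the 5′ minus 3′ covariate, 7 without _s_at and _x_at probe sets (where 34 of the 45 are measured, 9 of the 14 among them), 5 with a limit of 1.5-fold, and 9 to 13 without 1 array. Over all genes 2666 changed, against 1103 and 1411 with these covariates, 446 with the fold limit and 1315 to 2881 without 1 array. Without _s_at and _x_at probe sets 1813 of 17098 measured genes changed. Of the 92 probe sets 19 changed, against 9 and 12 with the covariates, 11 with the fold limit and 10 to 15 without 1 array. Without the suffixes 44 of the 92 probe sets remained, and 5 of these changed. The robust prior and median centring kept all 14 genes; quantile normalisation and array weights each kept 13 (ALDH1A3 at an adjusted p of 0.0502 and 0.0614), and the median of probe sets 13. All 14 kept their sign in every fit in which they were measured. Replicate numbers did not pair the arrays: deviations of same-numbered arrays correlated at −0.21, −0.06 and −0.0034 over probe sets. With the replicate block 10 of the 45 genes, 1947 of all genes and 11 of the 92 probe sets changed. The sign changed 13 times, always in genes not past the threshold in any fit. With the 18S covariate the difference was −0.049 in ADH7, −0.011 in AKR1D1, 0.029 in AKR7A3 and 0.044 in CBR1, with the 5′ minus 3′ covariate −0.031 in AKR1D1 and 0.035 in CBR1, and without _s_at and _x_at probe sets 0.059 in ALDH18A1. Leaving out 1 array gave −0.058 to 0.040 in AKR7A3, −0.0021 to 0.11 in ALDH1L1, −0.13 to 0.029 in ALDH1L2, −0.0012 to 0.10 in ALDH4A1 and −0.14 to 0.0029 in CBR1. Of the genes not past the threshold, AKR1C1, AKR1C2, ALDH3A1 and DHRS3 passed in 1 fit each. A filter on dim probe sets was not run, since the table holds no levels. The number of arrays, 3 in each group, limits the precision.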
